A study of Mus musculus with 2 samples.

Results

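The subunits of the mitochondrial ATP synthase and of the vacuolar ATPase were examined in cerebral cortex with and without the transmembrane prolyl 4-hydroxylase P4H-TM. The members were taken by name, as every gene whose symbol starts with Atp5 or Atp6v and that is covered by a probe set with a single gene symbol. This gave 37 of 18193 measured genes, of which 17 belong to the ATP synthase and 20 to the vacuolar ATPase. Each gene was represented by its brightest probe set, the set of probes with the highest mean of the 2 arrays. Cortical tissue came from naive male C57BL/6J mice aged 2.5 months, either wild-type (WT) or P4H-TM knockout (KO) littermates. The RNA of 4 mice was pooled for each genotype and hybridized to 1 Affymetrix mouse genome array, which gave 1 array per genotype. The spread between animals is therefore unknown, no difference between the genotypes was tested, and each value is a description of these 2 pools. Whole tissue was used, so that fewer cells of a type and less RNA per cell cannot be told apart.

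Both enzymes are rotary machines that couple a proton current across a membrane to the chemistry of ATP. The ATP synthase sits in the inner mitochondrial membrane, where protons that flow through its membrane part, FO, turn a ring of c subunits and drive ATP synthesis in its head, F1. The vacuolar ATPase runs in the opposite sense, as its V1 head splits ATP and its V0 membrane part pumps protons into lysosomes, endosomes and synaptic vesicles. In neurons this proton gradient drives the loading of transmitters into vesicles. Several vacuolar subunits are encoded by more than 1 gene, with broadly used isoforms and others known mainly from kidney, testis or bone.

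P4htm, the targeted gene, had log2 values of 11.05 in WT and 9.10 in KO on its brightest probe set, and 9.71 and 8.07 on the other. Neuron markers had a median log2 difference, KO minus WT, of −0.01, with 5 of 11 higher and 6 lower. Snap25 had 13.87 in WT and 13.84 in KO and Rbfox3 had 13.01 and 13.02. Of 10 astrocyte markers 2 were higher, 7 lower and 1 equal, with a median of −0.045 and differences from −0.23 to 0.04, while Aqp4 had 11.61 on both arrays and Gfap 10.21 and 10.18. Of 9 microglia markers 4 were higher and 5 lower, with a median of −0.02 and Cx3cr1 at 9.86 and 9.92 and P2ry12 at 8.93 and 8.90. Markers of other tissues and of oligodendrocytes differed more. All 13 measured choroid plexus markers were higher in KO, with a mean log2 level of 7.77 in WT and 9.23 in KO, Ttr at 14.49 and 14.86 and Kcnj13 at 8.33 and 10.54. Of 10 meninges markers, 9 were higher, with mean levels of 7.95 and 8.38, Dcn at 10.37 and 11.27 and Col1a1 at 6.42 and 6.52. All 13 oligodendrocyte markers were lower, with mean levels of 11.6 in WT and 11.3 in KO, Mbp at 14.67 and 14.59 and Mog at 10.39 and 10.06. Their part in the differences of the ATPase genes was not tested.

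The genes of both enzymes had nearly the same signal in WT and KO. None of the 37 members differed by 1.5-fold, where 0.61% of all measured genes were at least that much higher in KO and 0.148% lower. At a lower bound of 1.2-fold, a log2 difference of 0.26, none was higher and 1 was lower, against 4.12% and 4.91% of all genes. That gene was Atp6v1b1, with a log2 difference of −0.31 at a signal below the filter, which was set at 6.385, the median of all probe sets. Of the 6463 genes below the filter, 409 were at least 1.2-fold higher and 679 at least 1.2-fold lower. Of the 32 members above this filter none reached 1.2-fold, where 2.9% of 11730 genes above it were at least 1.2-fold higher and 1.83% lower. At 1.5-fold these shares of genes above the filter were 0.631% and 0.0512%. So few genes passed either bound that the absence of members above the filter among them is no result about these enzymes. The differences of the members above the filter ran from −0.06 to 0.11, with a median of 0.03.

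**Figure D1:**
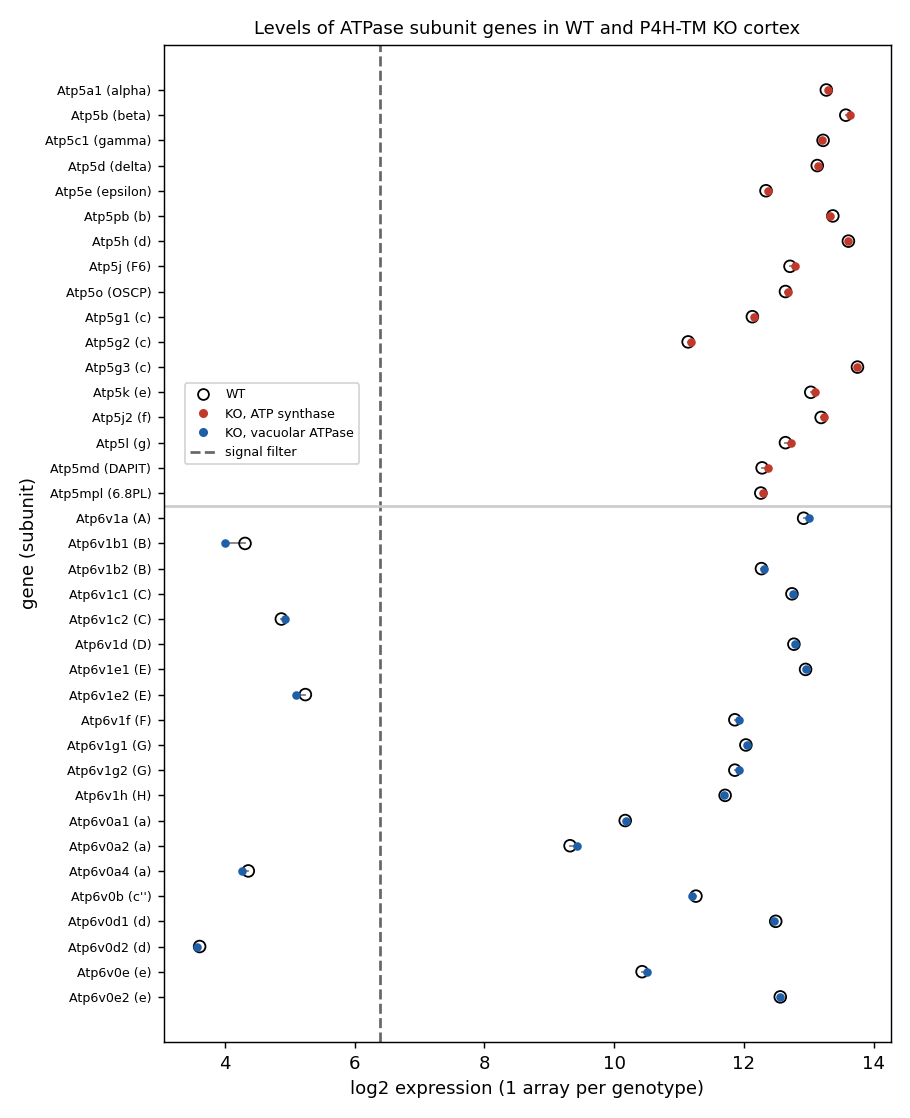
Log2 expression of each member on its brightest probe set, in the WT array (open circles) and the KO array (filled points, red for the ATP synthase and blue for the vacuolar ATPase), with the subunit in brackets. The dashed line marks the filter at 6.385, and each symbol is a single array without an error bar. For most genes the filled point overlaps the open circle, and the 5 genes left of the line are isoforms of the vacuolar ATPase.

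The enzymes differed little from each other. The ATP synthase genes had a median log2 difference of 0.03 and the vacuolar ATPase genes one of 0.01, beside 0.00 over all genes. The vacuolar median was thus lower by 0.02, and this gap of −0.02 was the same over the members above the filter and over those with a mean signal of at least 12. Of the ATP synthase genes 13 had higher and 4 lower values in KO, which became 12 and 4 with each array centred on its median and 14 and 2 with the trend over signal removed. Of the vacuolar genes 11 were higher and 8 lower as deposited, and 8 higher and 9 lower with centred arrays. Centring lowers every difference by 0.01, the last decimal of the values, and turned the sign of none of the members, as 3 vacuolar genes at 0.01 became equal and Atp6v1e1 left 0.00. All genes then stood at 7869 higher and 9833 lower. Among all genes 46% had higher and 49% lower values in KO, and among the genes above the filter 50.1% and 45.2%. Members with a mean signal of at least 12, a bound chosen after the values were seen, were higher in 17 of 24 cases, against 45.8% higher and 47.2% lower among 684 such genes. These were 12 of 16 ATP synthase genes and 5 of 8 vacuolar genes. For comparison, subunits of complex III, which hands electrons to cytochrome c, had a median of 0.04 over 9 genes, those of complex I one of 0.01 over 35 genes, and those of cytochrome c oxidase one of 0.03 over 17 genes. The cytochrome c oxidase genes spread more widely, from −0.37 to 1.01. Those of complex III ran from −0.02 to 0.13 and those of complex I from −0.08 to 0.15.

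Promoter sequences do not come from the arrays, but the signal filter used below to group promoters does. The promoters written out were also chosen with the differences known. RefSeq promoter sequences of build GRCm38.p6, each 300 bases long with 250 before and 50 after the transcription start, were at hand for 29 of the 37 members, with 2 promoters for 4 of them. The others were Atp5a1, Atp5mpl, Atp6v0a2, Atp6v0d2, Atp6v1b2, Atp6v1c1, Atp6v1g1 and Atp6v1h. Searched on both strands were CACGTG, the palindromic core of the E-box bound by the lysosomal regulator TFEB among other factors, GCGCATGC, the core of the site of the nuclear respiratory factor NRF1, and CCGGAAG, an ETS factor core. These motifs do not overlap in the sequences shown. CACGTG was in 4 of 15 vacuolar ATPase promoters, or 26.7%, and in 4 of 18 ATP synthase promoters, or 22.2%, against 7.15% of all 32851 promoters and 9.80% of the promoters of measured genes above the filter. CCGGAAG was in 6 ATP synthase promoters, or 33.3%, and 4 vacuolar ones, or 26.7%, against 8.86% of all promoters and 16.2% of those of genes above the filter. GCGCATGC was in 3 ATP synthase and 2 vacuolar promoters, 16.7% and 13.3%, against 2.71% and 4.95%. The 4 promoters at hand of vacuolar isoforms below the filter held none of the 3 motifs. The share among all genes below the filter was not calculated. Without it, and with so few promoters, this is no contrast with the isoforms above the filter. A match is a description of the letters and not of a bound factor, and no match says only that these letters are not in the window.

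A few of these promoters are written out in lower case, with the motif letters in capitals. Atp6v1a and Atp6v0e had the highest differences of the vacuolar ATPase after Atp6v0a2 and carry CACGTG, Atp6v1b1 is the isoform gene that differed by 1.2-fold and carries none of the motifs, and Atp5l, among the highest of the ATP synthase, carries all 3. CACGTG was found beside high and low differences alike. The other vacuolar promoters that hold it are those of Atp6v0b and Atp6v0d1, which had the lowest differences above the filter at −0.06 and −0.03, and that of Atp5pb, the lowest of the ATP synthase at −0.05, holds it too. The promoters written out lie at chr16:44139210-44139509 on the minus strand, chr17:26676146-26676445 on the plus strand, chr6:83742767-83743066 on the plus strand and chr9:44920693-44920992 on the minus strand.
Atp6v1a: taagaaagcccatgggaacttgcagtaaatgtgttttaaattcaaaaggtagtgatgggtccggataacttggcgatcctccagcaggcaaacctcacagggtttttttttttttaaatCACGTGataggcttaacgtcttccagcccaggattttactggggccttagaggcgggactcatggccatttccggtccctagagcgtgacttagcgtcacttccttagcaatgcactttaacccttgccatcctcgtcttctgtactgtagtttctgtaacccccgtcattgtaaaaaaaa
Atp6v0e: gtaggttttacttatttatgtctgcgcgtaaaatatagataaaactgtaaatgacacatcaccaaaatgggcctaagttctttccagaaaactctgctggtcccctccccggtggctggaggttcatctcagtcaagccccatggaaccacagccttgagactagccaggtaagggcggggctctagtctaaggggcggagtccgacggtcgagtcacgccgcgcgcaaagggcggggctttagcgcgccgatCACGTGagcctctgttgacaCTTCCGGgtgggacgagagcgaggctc
Atp6v1b1: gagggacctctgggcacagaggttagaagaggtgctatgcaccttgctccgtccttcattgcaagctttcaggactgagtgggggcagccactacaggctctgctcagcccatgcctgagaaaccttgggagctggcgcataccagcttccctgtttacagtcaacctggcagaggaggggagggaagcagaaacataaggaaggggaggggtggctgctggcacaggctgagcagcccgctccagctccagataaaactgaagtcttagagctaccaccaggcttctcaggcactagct
Atp5l: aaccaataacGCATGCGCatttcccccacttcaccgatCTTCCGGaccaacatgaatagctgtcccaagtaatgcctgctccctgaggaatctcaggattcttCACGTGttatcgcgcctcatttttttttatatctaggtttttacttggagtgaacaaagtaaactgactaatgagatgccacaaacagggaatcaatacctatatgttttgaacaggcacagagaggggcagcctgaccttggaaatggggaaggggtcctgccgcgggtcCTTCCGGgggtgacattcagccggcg
In Atp6v1a the match begins 131 bases before the start. In Atp6v0e CACGTG begins at base 4 after it and the reverse complement of CCGGAAG at base 24. In Atp5l GCATGCGC, the reverse complement of GCGCATGC, begins 240 bases before the start, CTTCCGG, that of CCGGAAG, 212 bases before it and again at base 25 after it, and CACGTG 147 bases before it. The Atp6v1b1 window holds 3 CpG dinucleotides, the Atp6v1a window 10, the Atp5l window 12 and the Atp6v0e window 20, where the median of all promoters was 7 and that of genes above the filter 20.

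In F1, the head that makes ATP, 4 of 5 genes had higher and 1 lower values in KO, with a median difference of 0.03, and with centred arrays 3 were higher, 1 lower and 1 equal. Atp5b, which encodes the catalytic beta subunit, had log2 values of 13.57 in WT and 13.63 in KO. Atp5a1, which encodes the alpha subunit that alternates with beta around the head, had 13.27 and 13.30. The values of Atp5c1, whose gamma subunit is the rotating shaft, were 13.22 and 13.20, the only lower ones of the head. Atp5d and Atp5e, whose products delta and epsilon form the foot of the shaft, differed by 0.01 and 0.03. On their brightest probe sets all 5 lay between −0.02 and 0.06. The other probe sets of Atp5a1 differed by 0.04 and −0.15, the latter at 8.61 in WT and 8.46 in KO. The dimmer probe set of Atp5d had 12.07 in WT and 12.17 in KO, a difference of 0.10, and that of Atp5c1 differed by −0.04.

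The peripheral stalk, which keeps the head from turning with the shaft, held the gene with the lowest and one with nearly the highest difference of the enzyme. Atp5pb, for subunit b, had 13.37 in WT and 13.32 in KO, a difference of −0.05, and 0.02 on its other probe set. Atp5j, for coupling factor F6, had 12.71 and 12.79, a difference of 0.08 on its only probe set. Atp5h, for subunit d, differed by −0.01, and by 0.06 on its dimmer probe set, while Atp5o, for the oligomycin sensitivity conferral protein, differed by 0.04 and 0.07. The median over the 4 genes was 0.015.

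The c ring is encoded by 3 genes whose products differ in their import sequences and are processed to the same mature protein. Atp5g1 had log2 values of 12.13 in WT and 12.16 in KO, Atp5g2 had 11.14 and 11.19, and Atp5g3 had 13.75 and 13.74. Their differences of 0.03, 0.05 and −0.01 span 0.06, so that no c isoform stood apart from the others. A dimmer probe set of Atp5g1 had 6.88 in WT and 7.19 in KO, a difference of 0.31, and was the only probe set of the ATP synthase beyond 1.2-fold. The dimmer probe sets of Atp5g2 differed by 0.08 and 0.05. Promoters at hand held CACGTG for Atp5g1 and Atp5g3 and GCGCATGC for Atp5g2.

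The small membrane subunits, which shape the dimers of the enzyme along the cristae, had the highest median difference of the parts of the ATP synthase on the brightest probe sets. All 5 were higher in KO as deposited, with arrays centred and with the trend removed, with a median of 0.07, and 4 of 5 were higher with probe sets averaged. Their median was then 0.0367, below those of the c ring at 0.06 and the peripheral stalk at 0.04, so that the order of the parts depends on the choice of probe sets. Atp5md, which encodes the subunit known as DAPIT, had 12.28 in WT and 12.37 in KO. This difference of 0.09 was the highest of the enzyme on the brightest probe sets. Atp5l, for subunit g, had 12.64 and 12.72, and Atp5k, for subunit e, had 13.03 and 13.10. The dimmer probe sets of Atp5k differed by 0.06 and −0.02, and those of Atp5j2, for subunit f, by 0.01 and −0.06, beside 0.04 on its brightest. Atp5mpl, for a small proteolipid, differed by 0.03.

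**Figure D2:**
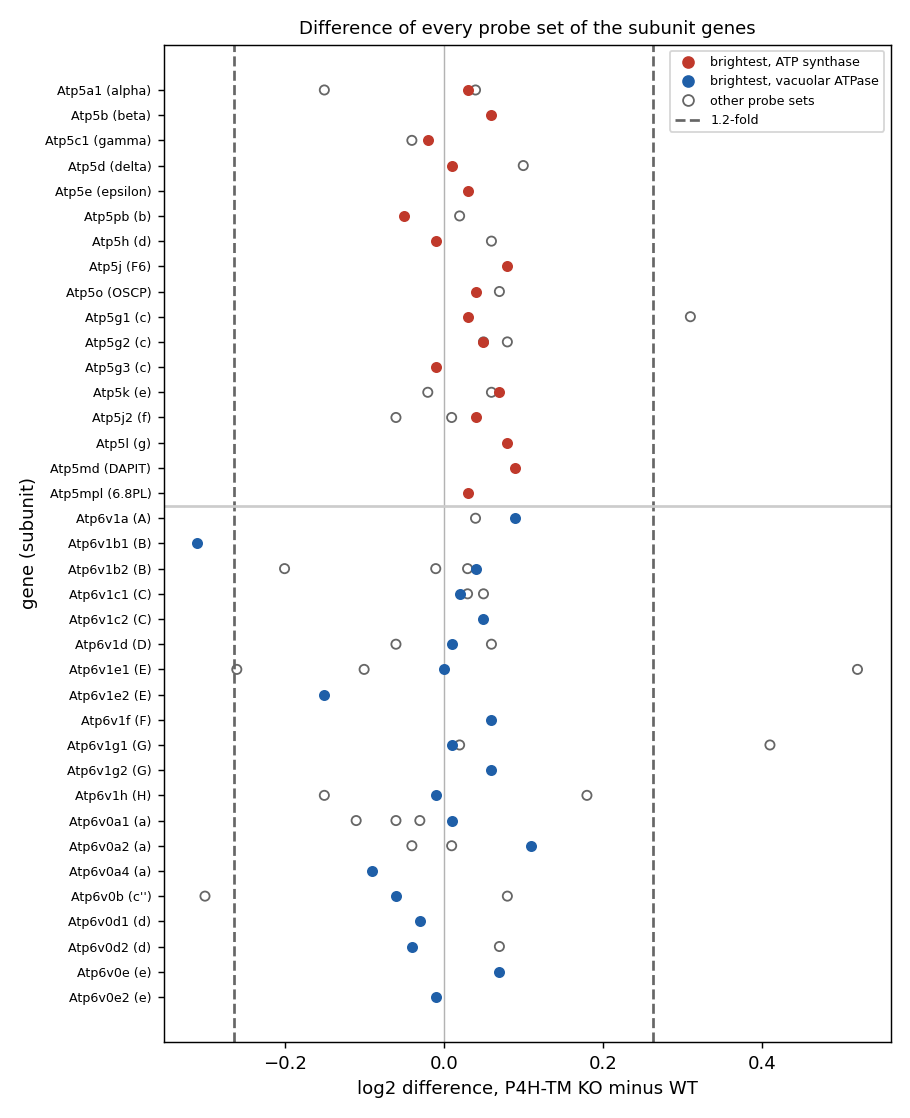
Log2 difference, KO minus WT, of each of the 74 probe sets of the members, with the brightest probe set of a gene filled (red for the ATP synthase, blue for the vacuolar ATPase), the others open, and dashed lines at 1.2-fold. There is 1 array per genotype and no error bar. The filled points lie between −0.31 and 0.11, and the points beyond the lines are open except that of Atp6v1b1.

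In V1, the ATP-splitting head of the vacuolar ATPase, 9 of 12 genes were above the filter, of which 7 had higher values in KO, 1 lower and 1 equal, with a median of 0.02. Over all 12 genes 8 were higher and 3 lower, or 6 and 4 with centred arrays. Atp6v1a, for the catalytic A subunit, had log2 values of 12.92 in WT and 13.01 in KO, the highest difference of the head at 0.09, and its other probe set differed by 0.04. Atp6v1d and Atp6v1f, whose products form the rotor, differed by 0.01 and 0.06. Atp6v1h, for the regulatory subunit H, had 11.71 and 11.70, with dimmer probe sets at 0.18 and −0.15.

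Of the B, C and E subunits of the head, 1 isoform was above the filter, with a difference of at most 0.04, and the other below it. Atp6v1b2, for the B subunit used in brain, had 12.27 in WT and 12.31 in KO, whereas Atp6v1b1, known from kidney and inner ear, had 4.31 and 4.00. This pair was the widest apart, with differences of 0.04 and −0.31, but Atp6v1b1 has a single probe set, which lies below the filter on both arrays. The next probe set of Atp6v1b2 had 10.69 in WT and 10.68 in KO, and those below the filter differed by −0.20 and 0.03. Atp6v1c1 had 12.74 and 12.76 and Atp6v1c2 had 4.87 and 4.92. Atp6v1e1 had 12.95 on both arrays, while Atp6v1e2, known from testis, had 5.24 in WT and 5.09 in KO. Both G isoforms were above the filter, with 12.03 and 12.04 for the broadly used Atp6v1g1 and 11.86 and 11.92 for Atp6v1g2, which is known from neurons.

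In V0, the proton-conducting part, 6 of 8 genes were above the filter, with 3 higher, 3 lower and a median of 0.00. The a subunit, which directs the pump to its membrane, has the isoforms Atp6v0a1 at 10.17 in WT and 10.18 in KO, Atp6v0a2 at 9.32 and 9.43, and Atp6v0a4, known from kidney, at 4.36 and 4.27. Atp6v0a2 had the highest difference of all members, 0.11, and its dimmer probe sets differed by 0.01 and −0.04. The dimmer probe sets of Atp6v0a1, near or below the filter, were all lower in KO, by −0.11, −0.06 and −0.03. Atp6v0d1, for the d subunit at the foot of the rotor, had 12.49 and 12.46, and Atp6v0d2, known from osteoclasts, had 3.61 and 3.57. Atp6v0e had 10.43 and 10.50 and Atp6v0e2, an isoform known from brain, had 12.56 and 12.55, a span of 0.08. Atp6v0b, for a ring subunit, had 11.26 in WT and 11.20 in KO on its brightest probe set, 8.71 and 8.41 on the next, and 8.41 and 8.49 on the dimmest, so that its probe sets differed in direction. Atp6v0c, which encodes the main ring subunit, was not analysed here, as no probe set with this single symbol was among the names used.

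Of the 5 vacuolar isoforms below the filter, 4 had lower values and 1 a higher value in KO, with a median of −0.09. All 6463 genes below the filter had a median of −0.04, with 38.4% higher and 55.8% lower, so that most such genes were lower too. The 15 vacuolar genes above the filter had a median of 0.01, as did all genes above it.

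Differences were wider on dim probe sets. Of the 74 probe sets of the members, 46 had a mean signal of at least 10, a bound chosen after the values were seen, and none of these differed by more than 0.10 between the genotypes. The other 28 differed by up to 0.52. The median size of the difference was 0.04 for the brighter and 0.095 for the dimmer probe sets, against 0.05 and 0.10 for all named probe sets in the same ranges. Among the dimmer ones, a probe set of Atp6v1e1 had 4.64 in WT and 5.16 in KO, and another of Atp6v1g1 had 4.85 and 5.26. A different probe set of Atp6v1e1 had 7.93 in WT and 7.67 in KO, the opposite direction. The brightest probe sets of these genes differed by 0.00 and 0.01. Of 21 members with more than 1 probe set, 8 had all of them in the same direction, where a difference of 0.00 counted as neither. The same share over all genes was not calculated, so this count has no background.

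**Figure D3:**
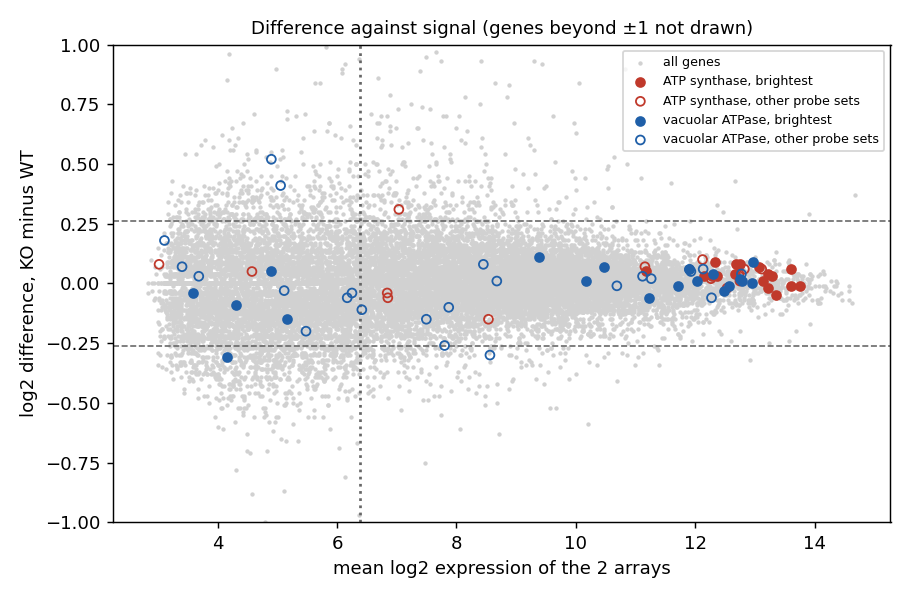
Log2 difference, KO minus WT, against the mean log2 signal of the 2 arrays, for all genes (grey, those beyond 1 in either direction not drawn) and for the probe sets of the members, filled where brightest and open otherwise. Dashed lines mark 1.2-fold and the dotted line the signal filter of 6.385. The probe sets of the members at a signal of at least 10 stay within 0.10 of 0, and the widest differences lie at low signal.

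On their brightest probe sets the partners of the enzymes also differed little. Of the listed assembly factors and partners of the ATP synthase, 11 of 12 were measured, with 6 higher, 3 lower and a median of 0.02. Atpif1, which blocks the enzyme when it runs backward, had 12.45 in WT and 12.41 in KO. Slc25a4 and Slc25a5, the main exchangers of ADP for ATP, differed by 0.03 and 0.05, and Slc25a3, the phosphate carrier, had 13.23 on both arrays. The dimmer probe sets of Slc25a5 went both ways, most of them lower in KO. They ran from 0.02 to −0.26, the latter at 9.07 in WT and 8.81 in KO. Slc25a31, a testis form of the exchanger, had 3.30 and 3.68, the only partner beyond 1.2-fold and below the filter. Of the accessory and assembly genes of the vacuolar ATPase 14 of 17 were measured, with 5 higher, 7 lower and a median of −0.005. Atp6ap1 and Atp6ap2, the accessory subunits of the proton pump, differed by 0.00 and 0.01, and Tcirg1, the osteoclast form of the a subunit, by 0.00. Dmxl2 and Wdr7, which help to assemble the pump on vesicles, differed by −0.02 and 0.02.

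**Figure D4:**
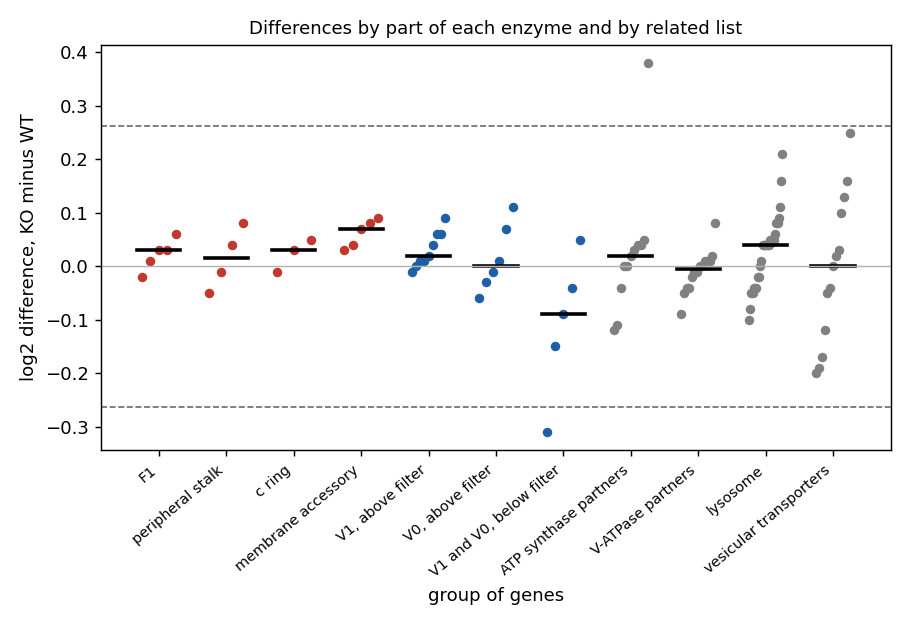
Log2 difference, KO minus WT, with 1 point per gene and a black bar at the median, for the parts of the ATP synthase (red), those of the vacuolar ATPase (blue) and related lists (grey), with dashed lines at 1.2-fold. There is 1 array per genotype and no error bar. Medians lie between −0.005 and 0.07, except at −0.09 for the vacuolar isoforms below the filter.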

How the data were processed

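Expression in cortex was measured on 2 Affymetrix arrays, 1 for WT and 1 for KO. Per the methods, signal was read out in Affymetrix GeneChip Operating System and then normalized by the authors in GenePattern. RMA is listed in the processing notes of the submitters, and its version is not given in the sources used here. The deposited values are log2 expression per probe set, rounded to 2 decimals, so that differences have steps of the last decimal. They ran from 2.69 to 14.91, and the number of arrays limits the precision. RMA equalizes the arrays, so that a shift shared by all genes would be removed.

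Genes were named from the platform annotation, with symbols updated through the gene ID to RefSeq assembly GRCm38.p6, which left the members' symbols as they were. Of 45101 probe sets, 34945 carry 1 symbol and are no control, 932 carry several and 9160 are unnamed here. Each gene took its brightest probe set. The difference was KO minus WT. Levels of different probe sets were compared only in the choice of the brightest, the filter and the signal bounds. They were not read as relative amounts of RNA. Samples were grouped by the genotype in the labels. The genes named are the members, with values on both arrays for isoforms, for the 3 highest and lowest differences of each enzyme and for those 1.2-fold apart, P4htm, partners 1.2-fold apart and 2 markers per cell type. The other members' values and the partners Atpif1, Slc25a4, Slc25a5, Slc25a3, Atp6ap1, Atp6ap2, Tcirg1, Dmxl2 and Wdr7, and the promoters shown, were added after the values were seen. The members and lists were chosen with earlier results of these data known. Alternatives were averaged probe sets, unmarked probe sets, centred arrays, loess (span 0.3), a signal filter, platform symbols, subunits only, a 2-fold bound and means. Unmarked probe sets are those without a letter mark before the ending of their name. A gene with no such probe set kept its marked ones. The calculation was tested on simulated data. Calculations ran in Python (version 3.11.15) with pandas 2.3.3 and numpy 2.4.6, loess came from statsmodels 0.14.6, and plots from matplotlib 3.10.9.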

Additional observations from a re-analysis of the deposited data

How the results depend on the processing

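Over 39 recalculations of the medians, their gap and the counts of members past a fold, 37 stayed within their tolerance, which was 1.5 times for a count and, for a median, the pooled SD between probe sets of a gene divided by the square root of the number of genes. The exceptions were the members at least 1.2-fold apart, 1 as reported, which numbered 2 with unmarked probe sets and 0 with the signal filter. The second gene was Atp5g1, whose bright probe set carries a mark and was then left out in favour of the one with a difference of 0.31. The marks do not all stand for cross-hybridization, so this setting is no test of it. No member was 1.5-fold or 2-fold apart under any of the alternatives run. Some of the 39 recalculations could not move. Platform symbols and subunits only left the members as they were, and centring leaves the gap between the medians unchanged. Neither a 2-fold bound nor the signal filter can raise a count of 0. All ATP synthase genes were above the filter, which therefore left their median as it was. The mean over the vacuolar ATPase genes was −0.0085, of opposite sign to their median of 0.01, which was 0 with centred arrays. The tolerance was 0.036 for the ATP synthase median, 0.033 for the vacuolar one and 0.049 for their gap. Each is wider than the value it judges, so that a change of sign could stay within it. Single members moved by more than the pooled SD of 0.147 in 1 of 148 recalculations, that of Atp5g1. Many of the 148 could not move that far. Centring shifted each member by 0.01, and removing the trend shifted none by more than 0.045. Averaging or leaving out probe sets could change only the 21 members with more than 1 of them. The count of 1 is therefore no measure of stability. The sign of the difference turned in 7 of the 21 members with more than 1 probe set when probe sets were averaged. It turned in 2 members with the trend removed and in 2 with unmarked probe sets. No paired analysis was possible because there is 1 array per genotype, and for the same reason no array could be left out.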

Other observations

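Lysosomal genes, the hydrolases and membrane proteins of the compartment that the vacuolar ATPase acidifies, had a median log2 difference of 0.04 in KO relative to WT. Of 28 measured, 27 of them above the filter, 18 were higher, 9 lower and 1 equal, with differences from −0.10 to 0.21, where 50.1% of all genes above the filter were higher and 45.2% lower. Genes for vesicular transporters and other proteins of transmitter vesicles, which depend on the same proton gradient, had a median of 0.00 over 13 measured genes, with 6 higher and 6 lower and differences from −0.20 to 0.25.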
